A study of Homo sapiens with 6 samples.

Results

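Wnt ligands, frizzled receptors and LRP co-receptors were followed at the RNA level in cells labelled Huh7, a human hepatocellular carcinoma line. The genes were taken by name, and the 10 described are WNT5A, WNT11, WNT3, FZD1, FZD4, FZD5, FZD6, FZD7, LRP5 and LRP6, out of 58233 genes listed. The groups compared were cells transfected with a plasmid that overexpresses the long noncoding RNA gene TP53TG1 (n = 3 libraries) and cells transfected with a control plasmid (n = 3 libraries). The labels state no dose, time after transfection or selection, and they do not say whether the replicates were separate cultures. The p-values therefore reflect how far these libraries differ among themselves, and that spread may be technical. Which TP53TG1 transcript the plasmid carries is not stated either. The deposited files name no unit. The values were read as FPKM, that is, fragments per kilobase relative to the fragments of the library, and summed over the transcripts of a gene. They could also be coverage per base, which is not divided by depth, and levels would then not be comparable between libraries without scaling.

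Wnt proteins are secreted, lipid-modified signalling proteins. They bind frizzled receptors, which span the membrane repeatedly, and in the canonical branch they join a frizzled to LRP5 or LRP6, which leads to stabilisation of beta-catenin and transcription through TCF and LEF factors. Other branches, for which WNT5A and WNT11 are best known, act through frizzled receptors, ROR and RYK on cell polarity and calcium without beta-catenin. In the liver, canonical Wnt signalling is known for its part in zonation and regeneration, and activating mutations of CTNNB1, the beta-catenin gene, are frequent in hepatocellular carcinoma.

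TP53TG1 itself stood at 69.8, 134 and 70.5 FPKM in TP53TG1 replicates 1 to 3, against 10.6, 5.25 and 6.15 FPKM in the controls. Those groups did not overlap, but the limma adjusted p was 0.0573. The gene passed in limma with the replicate block (adjusted p = 8.97e-22), and with block and scaling between libraries (adjusted p = 0.00906). In the block fit without scaling the SE hardly differed between genes, at 0.332 for TP53TG1, 0.336 for FZD5 and 0.334 for FZD1. Without a block it was 0.381, 0.443 and 0.317. The p-values of that block fit thus draw little on a gene's own spread. The libraries numbered 1 stood apart in both groups. The factors that bring the libraries to a common scale by the median of gene-wise ratios were 0.615, 1.117 and 0.994 for the TP53TG1 libraries, against 1.118, 1.190 and 1.187 for the controls. Before this scaling the fitted differences of 91.4% of the 12853 tested genes lay below 0, and their median was -0.35 on the log2 scale, against -0.01 after it. The mean length of protein-coding transcripts, weighted by FPKM, was 1228 nt in TP53TG1 replicate 1 and 1311 nt in control replicate 1, against 1652 to 1710 nt in the other 4 libraries. Hepatocyte markers were low: albumin (ALB) lay between 0.53 and 1.22 FPKM, while the intestinal keratin KRT20 lay between 51.1 and 171 FPKM. Of 9 hepatocyte markers 6 reached a mean of 1 FPKM, and the summed FPKM of all 9 was 22.2 to 59.8 with TP53TG1, against 51.6 to 67.8 in the controls. The defining marker of the labelled cell type was thus near 0, and whether the cells are Huh7 was not tested.

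Of the 10 genes, LRP5 was by far the most abundant, and the 3 ligands were among the least. Averaged over the 6 libraries, LRP5 stood at 149 FPKM, above 97.1% of 19791 protein-coding genes. It was followed by FZD6 at 10.9, FZD7 at 7.79, FZD5 at 6.55, LRP6 at 4.28, WNT5A at 1.79, FZD1 at 1.05, FZD4 at 0.622, WNT11 at 0.458 and WNT3 at 0.363 FPKM. LRP5 exceeded FZD6, FZD6 exceeded FZD7, FZD5 exceeded LRP6 and FZD1 exceeded FZD4 in 6 of 6 libraries. FZD7 exceeded FZD5, LRP6 exceeded WNT5A and WNT5A exceeded FZD1 in 5 of 6. FZD4, WNT11 and WNT3 could not be put in order, since FZD4 exceeded WNT11 in 4 and WNT11 exceeded WNT3 in 3 of 6.

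None of the tested genes passed the comparison of TP53TG1 with control. These are bulk libraries, in which fewer cells that express a gene and less RNA per cell cannot be told apart. Of the 10, 7 reached a mean of 1 FPKM and were tested, and 0 of 7 had an adjusted p under 0.05 by limma with Benjamini-Hochberg adjustment, where 0.00778% of all tested genes did. With the replicate number as a block it was 0 of 7 as well, where 1.49% of all tested genes passed, 0.584% higher and 0.91% lower. With median-of-ratios scaling it was 0 of 7, where 0.0156% passed. The fitted differences of the 7 genes lay below 0, with a median of -0.56 on the log2(FPKM + 1) scale, beside -0.35 for all tested genes, and 6 of 7 lay below that median. With median-of-ratios scaling the median of the 7 was -0.21, beside -0.01 for all. All 7 had their lowest FPKM in TP53TG1 replicate 1, as did 68.3% of all tested genes, and 4 of 7 did after scaling, as did 30.9% of all.

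**Figure D1:**
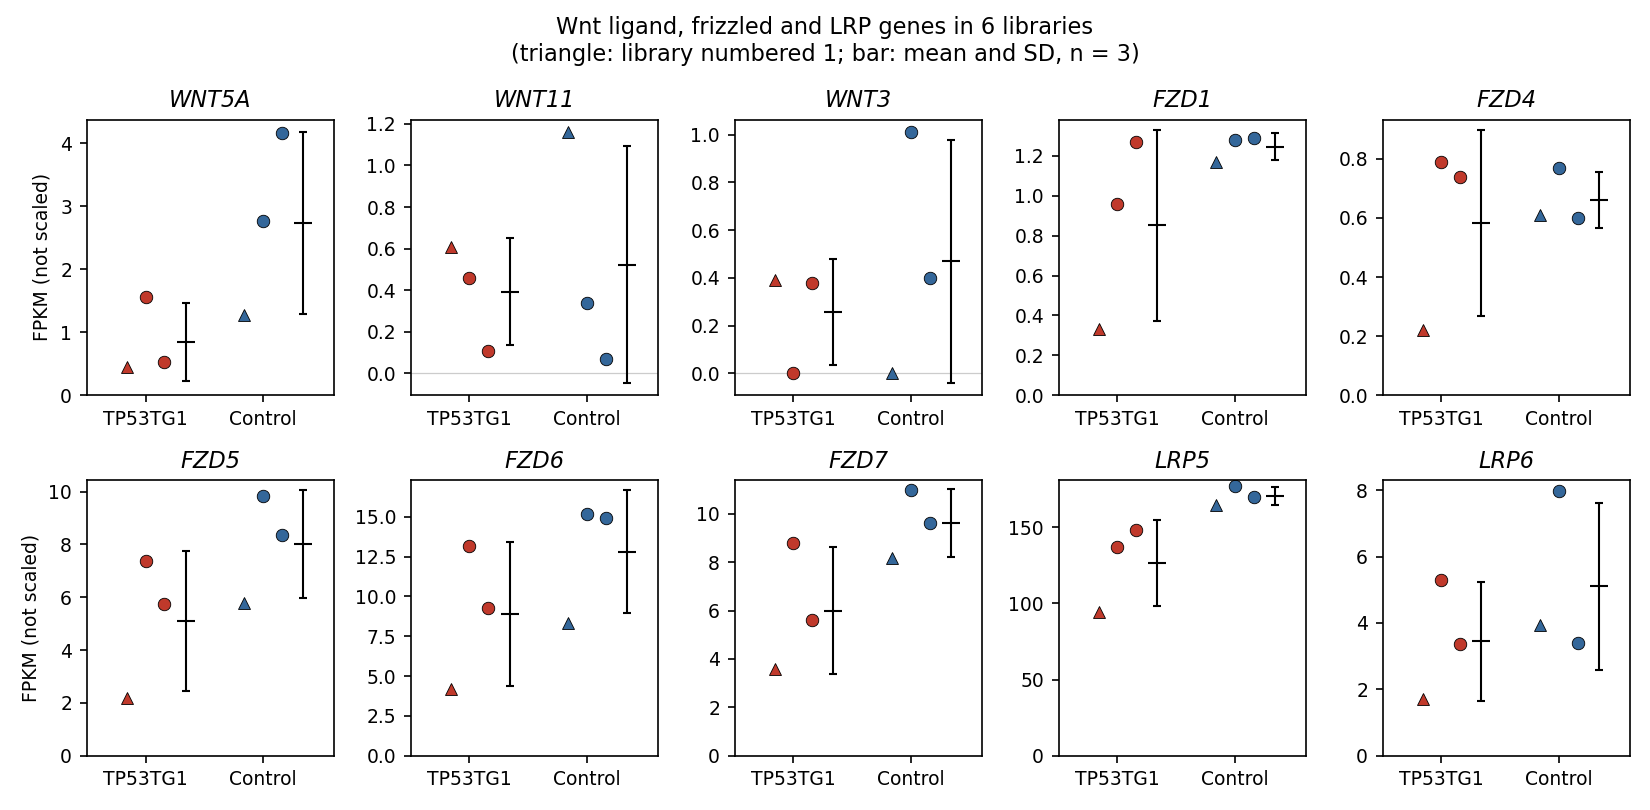
FPKM of the 10 genes (vertical axes, not scaled between libraries) in 3 TP53TG1 and 3 control libraries. Points are libraries, triangles the libraries numbered 1, and bars the mean and SD (n = 3). Only the LRP5 groups stand apart, at 94.5 to 148 FPKM with TP53TG1 and 165 to 177 FPKM in the controls, and TP53TG1 replicate 1 is the lowest library in 8 of 10 panels.

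WNT5A, a ligand of the branch that does not use beta-catenin (chromosome 3, 55465715 to 55490539, minus strand, GRCh38), had the most negative difference of the 7. It stood at 0.45, 1.56 and 0.53 FPKM in TP53TG1 replicates 1 to 3, against 1.27, 2.76 and 4.16 FPKM in the controls. Every TP53TG1 library lay below the control of its number, with ratios of 0.354, 0.565 and 0.127, but the groups overlapped, since TP53TG1 replicate 2 lay above control replicate 1. After median-of-ratios scaling the ratios were 0.644, 0.602 and 0.152. The share of all tested genes below 1 in every such ratio was not counted. The means were 0.847 ± 0.619 and 2.73 ± 1.45 FPKM (SD, n = 3 each), and the fitted log2 fold change of -0.99 had an SE of 0.409 and an adjusted p of 0.748 in limma with Benjamini-Hochberg adjustment. The adjusted p ran from 0.143 with the replicate block to 1.0 over the alternatives. WNT5A was the single gene of the 7 with an unadjusted p under 0.05, in a fit where 2.35% of all tested genes were under that limit and 1.91% were lower. After median-of-ratios scaling its log2 fold change was -0.78 and its limma unadjusted p was 0.0633, above that limit. The exact permutation test on FPKM (two-sided) gave p = 0.2, where 0.1 is the smallest that 3 against 3 libraries allow.

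The FPKM of WNT5A was assigned to different annotated transcripts in different libraries. Of its 7 transcripts, 5 were above 0 in at least 1 library. ENST00000474267, of 6042 nt and with its 5′ end at 55489945, held all of the gene's FPKM in TP53TG1 replicates 1 and 3 and in control replicate 1. ENST00000264634, of 6176 nt and with its 5′ end at 55487642, held 73.7% in TP53TG1 replicate 2, against 42.4% and 28.6% in control replicates 2 and 3. ENST00000497027, a shorter coding transcript of 1299 nt that begins at an internal start at 55481393, held 26.3% in TP53TG1 replicate 2, against 43.5% and 65.1% in control replicates 2 and 3. It was listed at 0 in the other 3 libraries. Since 95.2% of its bases also lie in exons of ENST00000264634, fragments can be placed on either. With ENST00000264634 alone in place of the sum, a choice made after seeing the data, the log2 fold change was -0.38. ENST00000264634 was listed at 0 in TP53TG1 replicates 1 and 3 and in control replicate 1. Of the bases of ENST00000474267, 98.2% lie in its exons, so the -0.38 depends on how fragments were placed.

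The 250 bases before the RefSeq start next to this internal start are shown because the transcript that begins there was the largest part of WNT5A in the 2 highest control libraries. They are from the RefSeq promoter table (GRCh38.p14), minus strand, 5′ to 3′, all in lower case because the window holds no GC box (GGGCGG on either strand), which capitals mark in the windows that have one.
WNT5A chr3:55481399-55481648: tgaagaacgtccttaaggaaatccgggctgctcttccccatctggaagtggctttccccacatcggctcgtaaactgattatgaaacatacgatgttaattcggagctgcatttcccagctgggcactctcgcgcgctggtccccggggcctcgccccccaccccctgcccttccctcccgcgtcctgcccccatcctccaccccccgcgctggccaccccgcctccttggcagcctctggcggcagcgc

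WNT11, a ligand known for cell movements in development (chromosome 11, 76186325 to 76210736, minus strand), and WNT3, a canonical ligand (chromosome 17, 46762506 to 46833154, minus strand), did not reach the mean of 1 FPKM. WNT11 stood at 0.61, 0.46 and 0.11 FPKM in TP53TG1 replicates 1 to 3, against 1.16, 0.34 and 0.07 FPKM in the controls. In both groups the library numbered 1 was the highest and the library numbered 3 the lowest. WNT3 stood at 0.39 and 0.38 FPKM in TP53TG1 replicates 1 and 3 and was listed at 0 in replicate 2, against 1.01 and 0.40 FPKM in control replicates 2 and 3 and 0 in replicate 1. All of it lay on ENST00000225512, and a value listed at 0 may be a failed estimate. In exact two-sided permutation tests WNT11 gave p = 0.9 and WNT3 p = 0.5.

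Among the other 16 Wnt genes, 7 were listed at 0 in all 6 libraries and 2 were tested. WNT7B, a ligand best known from lung and kidney development, stood at 1.34, 1.65 and 6.23 FPKM in TP53TG1 replicates 1 to 3, against 1.75, 2.86 and 2.78 FPKM in the controls (log2 fold change 0.05, SE 0.472, limma adjusted p = 0.951). Only TP53TG1 replicate 3 lay above the controls. WNT10B, a canonical ligand, stood at 1.12 ± 0.255 and 0.980 ± 0.177 FPKM (SD, n = 3 each; log2 fold change 0.09). WNT10A and WNT4 averaged 0.133 and 0.0833 FPKM with TP53TG1, against 0.193 and 0.200 FPKM in the controls. Within a library, WNT5A held 10.3%, 28.8% and 5.94% of the FPKM of all 19 Wnt genes in TP53TG1 replicates 1 to 3, against 21.4%, 31.8% and 48.3% in the controls. These shares do not depend on the scale of a library, and the groups overlapped. WNT7B held 30.6%, 30.5% and 69.8% with TP53TG1, against 29.5%, 32.9% and 32.3% in the controls.

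FZD6, FZD7 and FZD5 carried most of the frizzled RNA, and none of the 3 passed. FZD6, a receptor known for planar polarity (chromosome 8, 103298433 to 103332866, plus strand), stood at 4.20, 13.2 and 9.26 FPKM in TP53TG1 replicates 1 to 3, against 8.34, 15.2 and 14.9 FPKM in the controls. Each TP53TG1 library lay below the control of its number, and the groups overlapped. The fit gave it a log2 fold change of -0.56 (SE 0.449), or -0.21 after median-of-ratios scaling. FZD7, a receptor reported to be raised in hepatocellular carcinoma (chromosome 2, 202034587 to 202038445, plus strand), stood at 3.59, 8.79 and 5.61 FPKM with TP53TG1, against 8.18, 11 and 9.64 FPKM in the controls. Only TP53TG1 replicate 2 lay within the range of the controls. The fitted log2 fold change of FZD7 was -0.66 (SE 0.381), or -0.31 after scaling. FZD5, a receptor of canonical ligands that is known from the intestinal epithelium (chromosome 2, 207762586 to 207769563, minus strand), stood at 2.18, 7.39 and 5.75 FPKM with TP53TG1, against 5.80, 9.84 and 8.37 FPKM in the controls. Its groups overlapped through TP53TG1 replicate 2, with a log2 fold change of -0.65 (SE 0.443) and, with scaling, -0.33. For each of the 3 the limma adjusted p was 0.748. After scaling, the ratios between libraries of the same number lay below 1 in every pair, at 0.915, 0.922 and 0.740 for FZD6, 0.798, 0.855 and 0.695 for FZD7 and 0.683, 0.80 and 0.821 for FZD5. They did not for FZD1 (0.513, 0.799 and 1.18), LRP5 (1.04, 0.823 and 1.04) or LRP6 (0.786, 0.706 and 1.18). How many of all tested genes lay below 1 in every pair was not counted, and the labels do not state the pairing. In exact two-sided permutation tests on FPKM they gave p = 0.3 for FZD6 and p = 0.2 for FZD7 and FZD5.

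**Figure D2:**
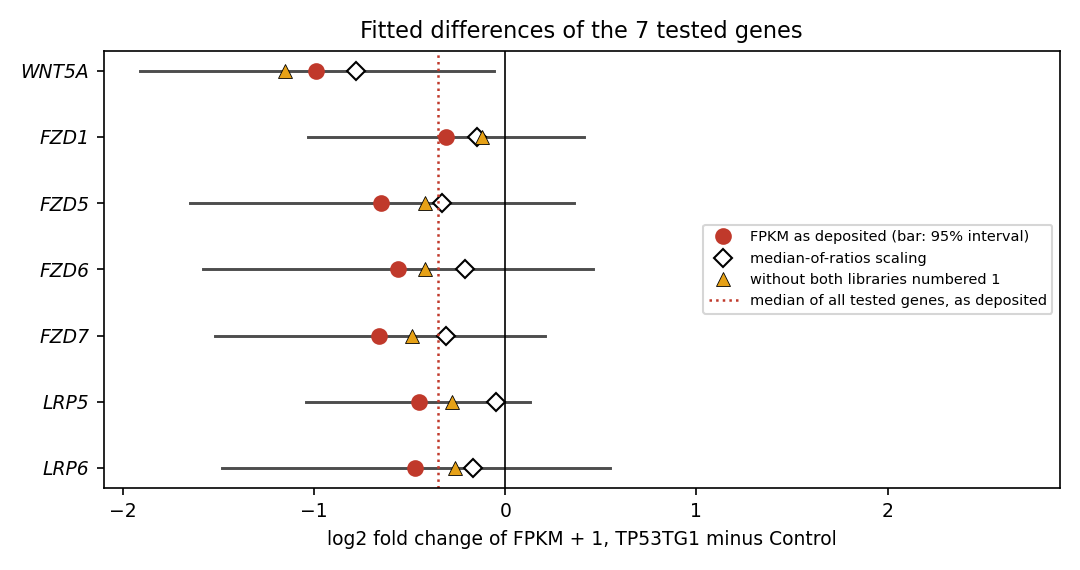
Log2 fold change of FPKM + 1, TP53TG1 minus control (horizontal axis), for the 7 tested genes. Circles are the fit on FPKM as deposited with 95% intervals, diamonds the fit after median-of-ratios scaling, triangles the fit without both libraries numbered 1, and the dotted line the median of all tested genes at -0.35. The interval of WNT5A runs from -1.91 to -0.06 and the other 6 intervals include 0. After scaling the WNT5A difference is -0.78, and no interval is drawn for it.

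FZD1 and FZD4 were the lowest of the 5 frizzled genes described. FZD1 (chromosome 7, 91264364 to 91271326, plus strand), an intronless gene for a canonical receptor, stood at 0.33, 0.96 and 1.27 FPKM in TP53TG1 replicates 1 to 3, against 1.17, 1.28 and 1.29 FPKM in the controls. The controls lay close together and the TP53TG1 libraries did not, so the log2 fold change of -0.31 (SE 0.317, limma adjusted p = 0.748) became -0.12 without the libraries numbered 1. FZD4 (chromosome 11, 86945679 to 86955391, minus strand), the receptor of the non-Wnt ligand norrin in retinal vessels, stood at 0.22, 0.79 and 0.74 FPKM with TP53TG1, against 0.61, 0.77 and 0.60 FPKM in the controls. It was not tested, and TP53TG1 replicate 1 was the only library far from the others. Because these transcripts are long, such values still rest, if they are FPKM, on an estimated 22 to 100 fragments a library for FZD4 and 31 to 162 for FZD1.

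The make-up of the frizzled RNA set the libraries numbered 1 apart in both groups. FZD6 held 25.9%, 39.3% and 37.9% of the FPKM of the 10 frizzled genes in TP53TG1 replicates 1 to 3, against 27.4%, 36.1% and 38.6% in the controls. FZD5 held 13.4%, 22.0% and 23.5% with TP53TG1, against 19.1%, 23.3% and 21.6% in the controls, and FZD7 22.1%, 26.2% and 23.0%, against 26.9%, 26.0% and 24.9%. FZD2, another intronless frizzled gene, took 25.4% in TP53TG1 replicate 1 and 17.4% in control replicate 1, but only 2.58% to 4.78% in the other 4 libraries. It stood at 4.12, 1.56 and 0.63 FPKM with TP53TG1, against 5.28, 2.00 and 1.85 FPKM in the controls. In each group it was highest in the library numbered 1, where FZD5 and FZD6 were lowest. FZD3 averaged 1.19 ± 0.346 and 1.71 ± 0.590 FPKM (SD, n = 3 each), FZD8 lay at or near 0, and FZD9 and FZD10 were listed at 0. FZD2 and FZD3, the 2 of these 5 genes that were tested, did not pass (limma adjusted p = 0.748 each).

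**Figure D3:**
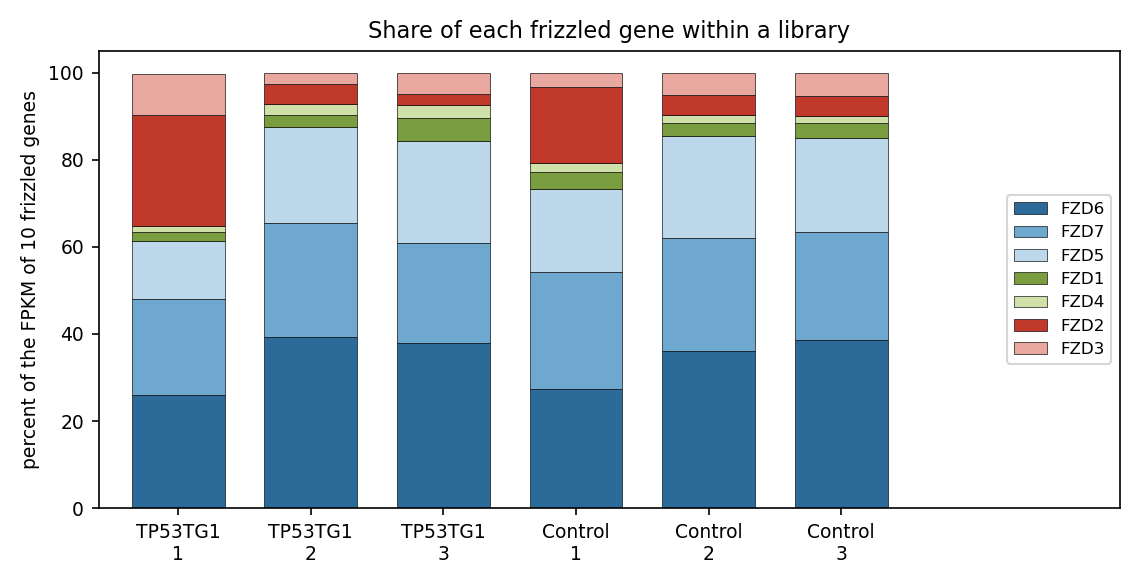
Share of each frizzled gene in the FPKM of the 10 frizzled genes (vertical axis, percent) in each library. FZD2 takes 25.4% and 17.4% in the libraries numbered 1 and under 5% in the others. FZD6, FZD7 and FZD5 are the largest parts in every library except TP53TG1 replicate 1, where FZD2 exceeds FZD7 and FZD5.

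The promoter window of FZD5 is shown as that of a main frizzled gene. It is from the RefSeq table (GRCh38.p14), minus strand, 5′ to 3′, with each GC box GGGCGG or its complement in capitals.
FZD5 chr2:207769907-207770156: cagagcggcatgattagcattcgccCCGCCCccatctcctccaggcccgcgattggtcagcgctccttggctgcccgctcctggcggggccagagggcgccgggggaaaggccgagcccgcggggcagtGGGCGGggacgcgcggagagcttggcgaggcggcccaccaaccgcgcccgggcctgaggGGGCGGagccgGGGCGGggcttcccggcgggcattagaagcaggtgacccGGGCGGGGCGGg

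LRP5, the larger source of LRP co-receptor RNA (chromosome 11, 68312609 to 68449275, plus strand), stood at 94.5, 137 and 148 FPKM in TP53TG1 replicates 1 to 3, against 165, 177 and 170 FPKM in the controls. It was the single gene of the 10 whose groups did not overlap, and 13.3% of all tested genes were lower in that way. After median-of-ratios scaling it stood at 154, 122 and 149 FPKM with TP53TG1, against 148, 148 and 143 FPKM in the controls, and the groups overlapped. The fit put LRP5 at a log2 fold change of -0.45 (SE 0.259, limma adjusted p = 0.748), or at -0.05 on scaled values. The exact permutation test (two-sided) had p = 0.1 on FPKM, the smallest possible, and p = 1.0 on scaled FPKM.

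LRP6, the paralogue of LRP5 (chromosome 12, 12116025 to 12267012, minus strand), stood at 1.70, 5.29 and 3.36 FPKM with TP53TG1, against 3.93, 7.99 and 3.40 FPKM in the controls. The groups overlapped, with a log2 fold change of -0.47 (SE 0.447, limma adjusted p = 0.748) and, with scaling, -0.17. LRP5 held 98.2%, 96.3% and 97.8% of the FPKM of the pair in TP53TG1 replicates 1 to 3, against 97.7%, 95.7% and 98.0% in the controls. The ratio of LRP5 to LRP6 ran from 25.8 to 55.6 with TP53TG1 and from 22.1 to 49.9 in the controls.

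The transcripts that made up LRP5 differed between libraries. ENST00000294304, the full-length transcript of 5159 nt and 23 exons, stood at 19.6, 102 and 103 FPKM in TP53TG1 replicates 1 to 3, against 65.3, 119 and 122 FPKM in the controls. ENST00000529702 (586 nt) and ENST00000529481 (551 nt), both within the last 10 kb of the gene, together stood at 74.0, 30.6 and 41.6 FPKM with TP53TG1, against 96.8, 51.9 and 41.9 FPKM in the controls. The full-length transcript thus held 20.8% of the gene in TP53TG1 replicate 1 and 39.5% in control replicate 1, against 67.1% to 74.5% in the other 4 libraries. Of the bases of ENST00000529702 and ENST00000529481, 80.5% and 67.9% lie in exons of the full-length transcript, so fragments of the shared part can be placed on either. The libraries numbered 1 were also those with the shorter weighted mean transcript length, and the part of RNA quality in the LRP5 split was not tested. With the full-length transcript alone, a choice made after seeing the data, the log2 fold change was -0.71 (limma adjusted p = 0.748).

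**Figure D4:**
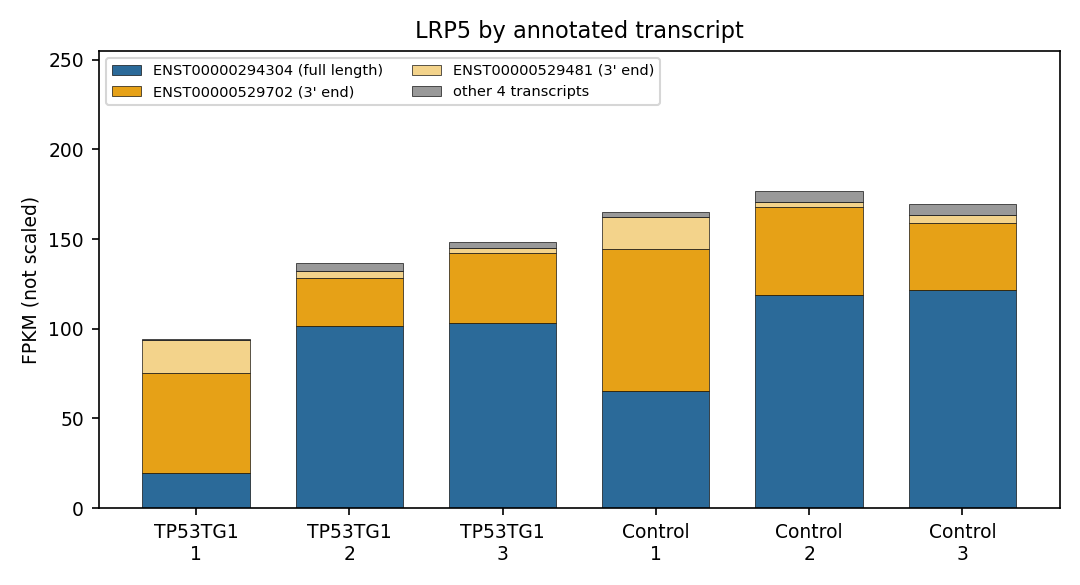
FPKM of LRP5 by annotated transcript (vertical axis, stacked) in each library. The full-length transcript is at 19.6 and 65.3 FPKM in the libraries numbered 1 and at 102 to 122 FPKM in the other 4, while the 2 transcripts at the 3′ end are highest in the libraries numbered 1.

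The window before the LRP5 start is shown because this gene was the most abundant of the 10. It is from the RefSeq table (GRCh38.p14), plus strand, 5′ to 3′, with GC boxes in capitals.
LRP5 chr11:68312341-68312590: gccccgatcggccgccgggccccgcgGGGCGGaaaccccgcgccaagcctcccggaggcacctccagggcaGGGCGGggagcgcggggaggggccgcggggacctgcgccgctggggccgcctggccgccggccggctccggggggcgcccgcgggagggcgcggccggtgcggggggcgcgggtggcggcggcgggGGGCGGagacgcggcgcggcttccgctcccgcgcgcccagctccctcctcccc

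Promoter windows of 250 bases were found for 6 of the 10 genes, 7 windows in all, with 2 for WNT5A. Neither CTTTGAT nor CTTTGAA, motifs of TCF and LEF factors, was in any of the 7 on either strand. They were in 2.26% and 3.8% of 35116 RefSeq promoter windows of the same length. GGGCGG was in 6 of 7 windows and in 42.6% of all, with matches that overlap each other counted separately: 3 in LRP5, 6 in FZD5 and 0 in the internal WNT5A window. The LRP5 window was 87.2% G or C, the FZD5 window 76.8% and the internal WNT5A window 64.4%.

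The other genes of the pathway gave no further call. Of 111 other Wnt pathway genes, 59 were tested, and 0 had an adjusted p under 0.05 by limma with Benjamini-Hochberg adjustment, while DKK1 was higher and MYC lower at an unadjusted p under 0.05, where 0.436% of all tested genes were higher and 1.91% lower. Their median log2 fold change was -0.34, beside -0.35 for all tested genes. Of 7 alternative Wnt receptors, 3 were tested. RYK, a kinase-like receptor of WNT5A, stood at 16.8 ± 9.32 and 23.8 ± 7.40 FPKM, and ROR1, a receptor tyrosine kinase family member, at 4.08 ± 2.39 and 5.36 ± 2.06 FPKM (SD, n = 3 each). RECK, a cofactor of WNT7 signalling, stood at 3.48 ± 0.948 and 3.77 ± 0.202 FPKM (SD, n = 3 each), so that the means of all 3 differed by less than the larger SD.

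In ligand acylation and secretion 8 of 9 genes were tested, with a median of -0.29. WLS, the carrier that brings Wnt proteins to the surface, stood at 10.2, 30.9 and 32.6 FPKM in TP53TG1 replicates 1 to 3, against 27.4, 38.1 and 30.9 FPKM in the controls. TMED2 and TMED5, genes of the p24 family of cargo receptors, averaged 90.0 and 25.2 FPKM with TP53TG1, against 109 and 31.5 FPKM in the controls, and VPS26A, of the retromer that recycles WLS, 21.5 against 27.4 FPKM. In receptor turnover 4 of 11 genes were tested, with a median of -0.28. LGR4, a receptor of R-spondins, averaged 12.3 ± 7.01 and 13.1 ± 4.01 FPKM (SD, n = 3 each). RNF43 and ZNRF3, ubiquitin ligases that remove frizzled receptors from the surface, averaged 5.98 and 3.54 FPKM with TP53TG1, against 7.75 and 4.13 FPKM in the controls. RSPO1, RSPO4 and LGR6 were listed at 0 throughout.

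DKK1, a secreted antagonist that binds LRP5 and LRP6, was the pathway gene with the most positive difference. It stood at 58.0, 90.0 and 157 FPKM in TP53TG1 replicates 1 to 3, against 34.9, 26.1 and 47.8 FPKM in the controls, and the groups did not overlap. The same held after scaling, and 0.428% of all tested genes were higher with separate groups before scaling and 1.89% after it. The fitted log2 fold change of DKK1 was 1.38 (SE 0.401, limma adjusted p = 0.748). The gene passed in limma with the replicate block (adjusted p = 0.00189) and when scaling was added to the block (adjusted p = 0.0373), where 0.0467% of tested genes passed. Over the alternatives the adjusted p ran from 0.00189 to 1.0. Of the other tested antagonists, TRABD2A, a metalloprotease that cleaves Wnt proteins, averaged 1.68 ± 0.760 and 2.78 ± 0.312 FPKM, and KREMEN1, a DKK receptor, 2.46 ± 1.52 and 2.78 ± 0.681 FPKM (SD, n = 3 each).

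**Figure D5:**
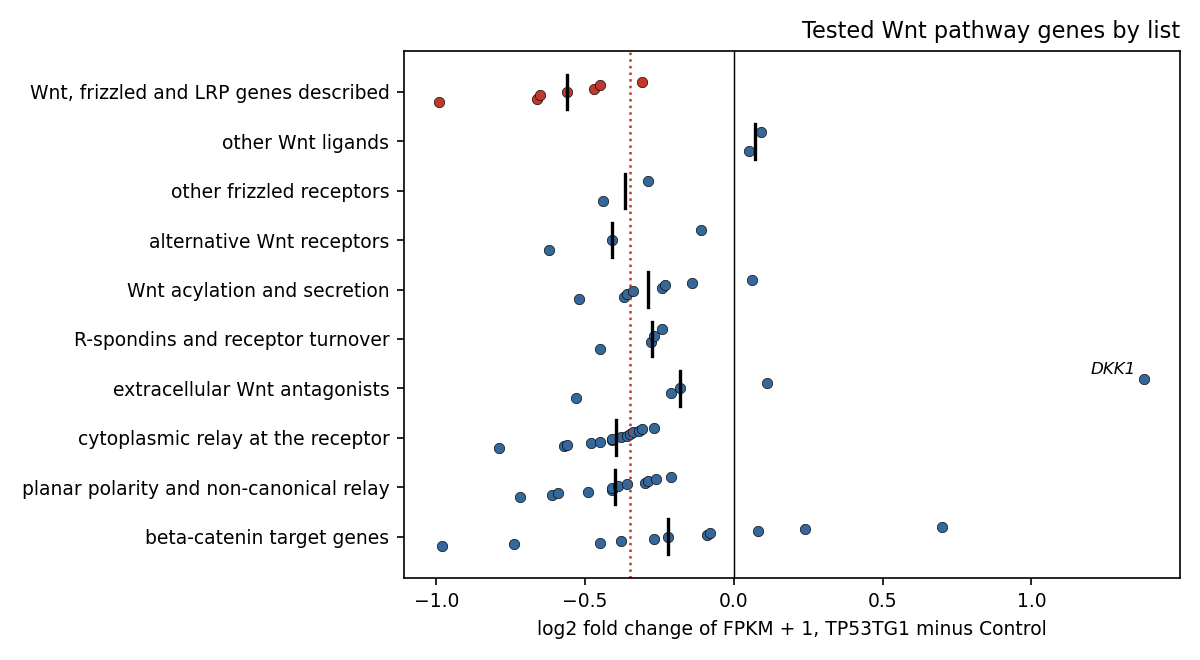
Log2 fold change of FPKM + 1, TP53TG1 minus control (horizontal axis), of the tested genes of each Wnt pathway list. Points are genes, black ticks list medians, and the dotted line the median of all tested genes at -0.35. DKK1 at 1.38 lies farthest to the right, and WNT5A at -0.99 and MYC at -0.98 farthest to the left.

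Below the receptors, all 14 relay genes were tested and 0 passed, with a median of -0.40. AXIN1, the scaffold of the destruction complex that LRP5 and LRP6 recruit, stood at 10.7, 24.2 and 17.5 FPKM in TP53TG1 replicates 1 to 3, against 24.3, 29.6 and 35.6 FPKM in the controls (log2 fold change -0.79, SE 0.358, limma adjusted p = 0.748). The groups did not overlap, before or after scaling, and after it 2.18% of all tested genes were lower in that way. DVL1 and DVL2, dishevelled genes whose proteins bind frizzled receptors, averaged 32.7 and 28.5 FPKM with TP53TG1, against 44.2 and 38.4 FPKM in the controls. Of 16 planar polarity and non-canonical relay genes 12 were tested, with a median of -0.40. CELSR1, a polarity cadherin gene, averaged 12.3 ± 3.07 and 18.6 ± 1.80 FPKM (SD, n = 3 each). Of 18 beta-catenin target genes 11 were tested, with a median of -0.22 and values from -0.98 to 0.70. MYC averaged 90.7 ± 42.8 and 171 ± 37.9 FPKM, MMP7, a matrix protease gene, 17.1 ± 7.21 and 9.58 ± 1.47 FPKM, and CCND1, the cyclin D1 gene, 105 ± 42.0 and 132 ± 42.9 FPKM (SD, n = 3 each). The MMP7 groups overlapped on FPKM. After median-of-ratios scaling they did not, with TP53TG1 higher, as in 1.89% of all tested genes. The MYC and CCND1 groups overlapped before and after scaling.

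Markers of other cell types were read beside these values. The summed FPKM of 6 intestinal epithelial markers was 92.1 to 157 in the TP53TG1 libraries, against 180 to 347 in the controls, and 5 of 6 were tested. CDX2 was above 0 in every library. Of the 5, 4 were lower at an unadjusted p under 0.05, where 1.91% of all tested genes were, and 0 passed in limma without a block. The median log2 fold change of the 5 was -1.09, beside -0.35 for all tested genes, and -0.71 beside -0.01 after scaling. LGALS4, an intestinal galectin gene, stood at 27.1, 12.7 and 3.21 FPKM with TP53TG1, against 135, 24.0 and 22.6 FPKM in the controls, and the groups overlapped. It passed in limma with the replicate block (log2 fold change -1.88, adjusted p = 4.57e-06), where its SE was 0.334, against 0.819 without a block. The call was lost when scaling was added to the block (adjusted p = 0.601). With scaling and no block, the limma unadjusted p was 0.0831 for KRT20 and 0.172 for LGALS4, while the rest of the 4 stayed under 0.05. The sum of 6 fibroblast and stellate cell markers was 22.6 to 32.5 with TP53TG1, against 19.1 to 21.5 in the controls. Of these 6, 5 were tested and 0 passed. Their median log2 fold change was 0.49, with values from 0.01 to 0.77, where 91.4% of all tested genes lay below 0. PDGFRB, a stellate cell marker and the only one not tested, was at most 0.22 FPKM. Of the immune markers, CD68 stood at 45.2, 47.3 and 65.2 FPKM with TP53TG1, against 62.1, 32.4 and 44.0 FPKM in the controls, while PTPRC, CD3E and LYZ lay near 0. The sum of 4 endothelial markers was 1.92 to 9.10 FPKM with TP53TG1, against 6.84 to 12.2 FPKM in the controls. Of these, 2 reached a mean of 1 FPKM and made up nearly all of the sum, while CDH5 and VWF lay near 0. The part of these marker lists in the values of the 10 genes was not tested.

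By level pattern, the genes most like the leading gene of each role were found over the 6 libraries, as the mean absolute difference of log2(FPKM + 1) values centred on each gene's own mean. For WNT5A they were BTBD19 (0.0826), TCEA1 (0.0836) and FRG1HP (0.101), where the median gene differed by 0.504. For FZD6 they were ZBTB26 (0.0273), COMMD2 (0.0275) and NSUN3 (0.0318), against a median of 0.393. For LRP5 they were RPL7L1 (0.0184), ZNF749 (0.0209) and TAMM41 (0.0277), against a median of 0.298. These values are not scaled between libraries, so part of each likeness is the scale that all genes share.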

How the data were processed

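Per the labels' protocols, RNA was extracted with TRIzol, treated with DNase I and made into libraries with a TruSeq kit. The authors deposited 1 value per transcript and library. The submitters' processing notes name HISAT2, StringTie and the build GRCh38.p10, without versions. The file headers give no unit. The deposited values were taken as FPKM, since they are not whole and library totals differ, from 599081 to 890541. Coverage per base, which StringTie also writes, would also be fractional with unequal totals, so the values do not settle the unit. FPKM are relative to the fragments of a library but are not scaled further between libraries.

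Blank gene names, up to 88000 a library, were filled by transcript from the other libraries. Transcripts were summed per gene, and 99.8% were found in GENCODE release 29. The 12853 genes whose mean reached 1 FPKM entered limma 3.58.1 (with a trend, R 4.3.3) as log2(FPKM + 1), TP53TG1 minus control, with Benjamini-Hochberg adjustment at 0.05. Such fold changes understate those of low genes. Joins used pandas 2.3.3 (Python 3.11.15). The fit was tested on simulated data.

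Depth was estimated from the spacing of low values of single-transcript genes of 600 to 1500 nt, a step of 0.0545 to 0.073 FPKM kb. If the values are FPKM and the step is 1 fragment, it gives 13700000 to 18300000 fragments a library, the fewest in TP53TG1 replicate 1. No interval was derived from it.

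The labels number the libraries of each group 1 to 3. Deviations from the group means correlated at 0.71, 0.562 and 0.289 between libraries of the same number, above the limit of 0.1, so the numbers were taken to pair the libraries, from the data and not from the labels. Libraries of unlike number reached 0.4 (TP53TG1 replicate 2 with control replicate 3) and 0.302 (TP53TG1 replicate 3 with control replicate 2), above the 0.289 of the pair numbered 3, so this check does not tell numbers 2 and 3 apart. The block fit is given for named genes where it changes a call. Without scaling, its SE was almost the same from gene to gene, so its p-values and calls draw little on a gene's own spread.

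The members and the pathway lists were chosen with earlier results of these data known. The 10 genes and TP53TG1 were always named, and from each list up to 4 tested genes with the smallest p (or the highest mean, where fewer were tested) where they add to the account. RSPO1, RSPO4, LGR6, FZD10, ALB, CDX2 and PDGFRB were named in addition, after their values were seen. The result of 1 listed marker is not reported here. All 154 list entries matched a gene, 1 of them by Ensembl ID.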

Additional observations from a re-analysis of the deposited data

How the results depend on the processing

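Of the 10 genes, 7 were tested, and 0 passed under any of the 14 alternative settings. Over these and the single-transcript choice, their 99 fitted differences all lay below 0, with adjusted p from 0.143 to 1.0. In the main fit, without scaling, 91.4% of all tested genes lay below 0 too. The settings reuse the same libraries, and the share of all genes below 0 in every setting was not counted. The ranges were -1.62 to -0.38 for WNT5A, -0.65 to -0.09 for FZD1, -0.93 to -0.23 for FZD5, -0.88 to -0.15 for FZD6, -0.94 to -0.31 for FZD7, -0.71 to -0.05 for LRP5 and -0.76 to -0.15 for LRP6. The -0.38 of WNT5A came from the single-transcript choice. Across the transcriptome 1 gene passed, 0 with no filter on low values, 2 with a mean of at least 5 FPKM, 2 with median-of-ratios scaling, 192 with the replicate block and 6 with block and that scaling, and 0 to 1 when any library was left out, with 0 without control replicate 1. The cause of these moves was not tested. TP53TG1 passed in 4 alternatives, and the replicate block added no call among the 7 genes. The LRP5 groups overlapped with either scaling, leaving 0 of 10 genes with separate groups. Shares taken over the described genes only moved by more than their SD for 10 of 16 values, since FZD2, WNT7B and others then leave the total. Why none of the 7 genes passed was not tested.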

Other observations

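Transcript splits of 2 further genes differed between libraries. For LRP6, ENST00000261349, the coding transcript of 10020 nt, held 27.1%, 56.9% and 71.1% of the FPKM in TP53TG1 replicates 1 to 3, against 28.5%, 50.6% and 100% in the controls. ENST00000538239, annotated as a target of nonsense-mediated decay, held 41.2%, 3.02% and 28.9% with TP53TG1, against 45.5%, 35.7% and 0% in the controls. All of its bases also lie in exons of ENST00000261349. For FZD6, ENST00000358755 held 66.2% of the FPKM in TP53TG1 replicate 1, and 90.4% to 95.8% elsewhere, and ENST00000522484, another annotated decay target, held 33.8% there.

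Within the ligands, the ratio of WNT7B to WNT5A was 2.98, 1.06 and 11.8 in TP53TG1 replicates 1 to 3, against 1.38, 1.04 and 0.668 in the controls. The groups overlapped, with replicate 3 setting the highest and the lowest value.

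The ratio of FZD6 to FZD5 ran from 1.61 to 1.93 in the TP53TG1 libraries and from 1.44 to 1.78 in the controls, a narrow range beside that of FZD2 to FZD7, which ran from 0.112 to 1.15 and from 0.182 to 0.645.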
